A study of Tupaia belangeri with 6 samples.

Results

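The neuregulins and their receptors were followed through single-nucleus RNA sequencing (snRNA-seq) of the hippocampus of naturally aged tree shrews (TSs, Tupaia belangeri). The 8 genes were taken by name from the feature lists of the matrices, as 8 of 83605 features, and comprise the ligands NRG1, NRG2, NRG3 and NRG4 and the receptors EGFR, ERBB2, ERBB3 and ERBB4. Libraries came from 3 control TSs, titled Normal, and 3 TSs with Alzheimer's-like pathology (ALP), titled AD, with 1 library per animal. Neither group carried a transgene, an allele or a treatment: by the study's methods the ALP TSs were chosen from a colony for poor performance in a pipeline maze and the controls were age-matched healthy animals. The labels do not give the sex of the animal behind each library. The comparison between ALP and control asks whether ligand or receptor transcripts change in any class of hippocampal nuclei.

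Neuregulins are growth factors with an EGF-like domain, mostly made as membrane-anchored precursors that proteases cut free at the cell surface. They bind ERBB3 and ERBB4, whereas EGFR answers to EGF and related ligands, ERBB2 binds no ligand and serves as a partner in heterodimers, and ERBB3 has little kinase activity of its own. In the brain, NRG1 and NRG3 from excitatory neurons act on ERBB4 of interneurons and shape the synapses that these receive, and neuregulins from axons act on oligodendrocytes and their precursors.

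The libraries held 3011 to 8785 barcodes and 19.2 to 35.9 times 1000000 unique molecular identifiers (UMIs, each counting 1 captured RNA molecule). After the study's limits of at least 200 and under 2500 genes and under 5% mitochondrial UMIs, 28233 of 37603 barcodes remained, between 1614 in Control 2 and 7022 in Control 1. Control 2 stood apart, since 46.4% of its barcodes exceeded the gene limit against 16.0% to 27.7% in the other 5 libraries. Any pair of libraries shared at most 0.465% of barcodes. Clusters built without the 8 genes among the variable genes were named from marker genes, which gave 11 classes with at least 10 nuclei in every library. The names rest on markers such as MOG, which reached 797 CPM (UMIs per 1000000 UMIs of the summed nuclei) in Oligo-like nuclei, and PROX1, with 177 CPM in Gran-like nuclei (granule neurons) and 15.7 CPM in Pyra-like nuclei (pyramidal neurons). GAD1 was low throughout, at 7.95 CPM in InN-like nuclei (interneurons) and at most 2.65 CPM in any other named class, and GAD2 and SLC32A1, further defining genes of interneurons, had no UMI, so that the InN-like clusters rest on other markers, among them SST, LHX6, VIP, CALB2 and ADARB2. The 11th class, called mixed clusters here, joined 1089 shallow nuclei led by haemoglobin genes and TTR, a choroid plexus gene, with 499 nuclei led by COL8A1. It was formed by the presence of CAMK2A and SLC17A7 alone, genes of excitatory neurons found in 37.9% and 26.3% of nuclei of the larger cluster. The larger cluster also passed 3 markers of pyramidal neurons, NEUROD6, FIBCD1 and TYRO3. It lost that name because TTR, and none of the pyramidal markers, was among its leading genes. These leading genes also included OLFM1, the gene by which the study names a subtype of excitatory neurons. Choroid markers summed to 84.2 to 1568 CPM in the libraries of the mixed clusters, and this class carries no cell type name. In Oligo-like nuclei too these markers differed between libraries, from 9.02 CPM in ALP 2 to 136.9 CPM in Control 1.

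The upper gene limit removed neuron-rich barcodes and with them most ligand transcripts. Of all UMIs of NRG1 and NRG3, 25.1% and 24.9% lay in the nuclei kept. The share was 33.7% for NRG2, 40.1% for NRG4, 55.0% for ERBB4, 58.7% for EGFR and 75.4% for ERBB3. Kept nuclei held 2192 UMIs of NRG1, 8682 of NRG2, 11680 of NRG3, 196 of NRG4, 735 of ERBB3, 185007 of ERBB4 and 3512 of EGFR. These sums set the precision of each gene and are no order of expression, since a gene's counts also depend on its transcript and annotation.

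The ligand NRG1, which supports synapses and myelin, was highest in pyramidal and granule neurons among the named classes. Its level averaged 93.5 ± 30.2 CPM (SD, n = 6 libraries) in Pyra-like nuclei, 69.9 ± 26.8 CPM in the mixed clusters and 58.2 ± 16.1 CPM in Gran-like nuclei, and these 3 ranges overlapped. Within the mixed clusters the level was 33.2 ± 15.3 CPM in the nuclei led by haemoglobin genes and 117.8 ± 18.8 CPM (n = 5 libraries) in those led by COL8A1. InN-like nuclei followed with 28.6 ± 7.6 CPM, and their highest library lay below the lowest Gran-like one. OPC-like nuclei (oligodendrocyte precursors) reached 19.3 ± 5.8 CPM, which overlapped with InN-like nuclei. In Oligo-like nuclei the level was 4.68 ± 1.7 CPM and in Astro-like nuclei 3.86 ± 2.3 CPM. By source, Pyra-like nuclei held 41.0 ± 13.4% of a library's NRG1 UMIs and Gran-like nuclei 19.4 ± 9.1%.

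NRG2, a ligand of ERBB3 and ERBB4, was spread over neurons, precursors and Astro-like nuclei. It averaged 248.8 ± 37.9 CPM in Gran-like, 190.2 ± 42.9 CPM in InN-like, 183.9 ± 41.6 CPM in OPC-like, 144.5 ± 44.7 CPM in Pyra-like and 124.5 ± 19.7 CPM in Astro-like nuclei, and each of these overlapped with its neighbour in the order. Micro-like and Oligo-like nuclei stood at the bottom with 24.8 ± 10.2 and 17.0 ± 0.98 CPM. In nuclei rather than sums, 20.2 ± 4.8% of Astro-like nuclei held at least 1 UMI against 2.3 ± 0.5% of Oligo-like nuclei, at median depths of 1880 and 1330 UMIs.

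NRG3, a ligand that binds ERBB4, was found mainly in neurons. Its level was 391.2 ± 65.4 CPM in Pyra-like, 314.3 ± 37.6 CPM in Gran-like, 273.4 ± 101 CPM in the mixed clusters and 256.5 ± 37.1 CPM in InN-like nuclei, again with overlapping neighbours. The lowest InN-like library, at 194.4 CPM, lay above the highest OPC-like one at 121.0 CPM, and OPC-like nuclei averaged 94.7 ± 15.8 CPM. Astro-like and Oligo-like nuclei averaged 13.03 ± 7.1 and 11.6 ± 3.9 CPM. Of the nuclei, 68.0 ± 10.4% of Pyra-like and 1.6 ± 0.6% of Oligo-like ones held an NRG3 UMI, at median depths of 3996 and 1330 UMIs. Per 100 nuclei the UMIs numbered 147.0 ± 15.6 and 1.7 ± 0.7. NRG4, a ligand better known from fat and liver, was sparse. Its highest mean, 14.4 ± 13.8 CPM in Ependymal-like nuclei, rested on 5 UMIs in 175 nuclei and ranged from 0 to 34.1 CPM over the libraries, and it was at 0 in Endo-like and Fibroblast-like nuclei.

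**Figure D1:**
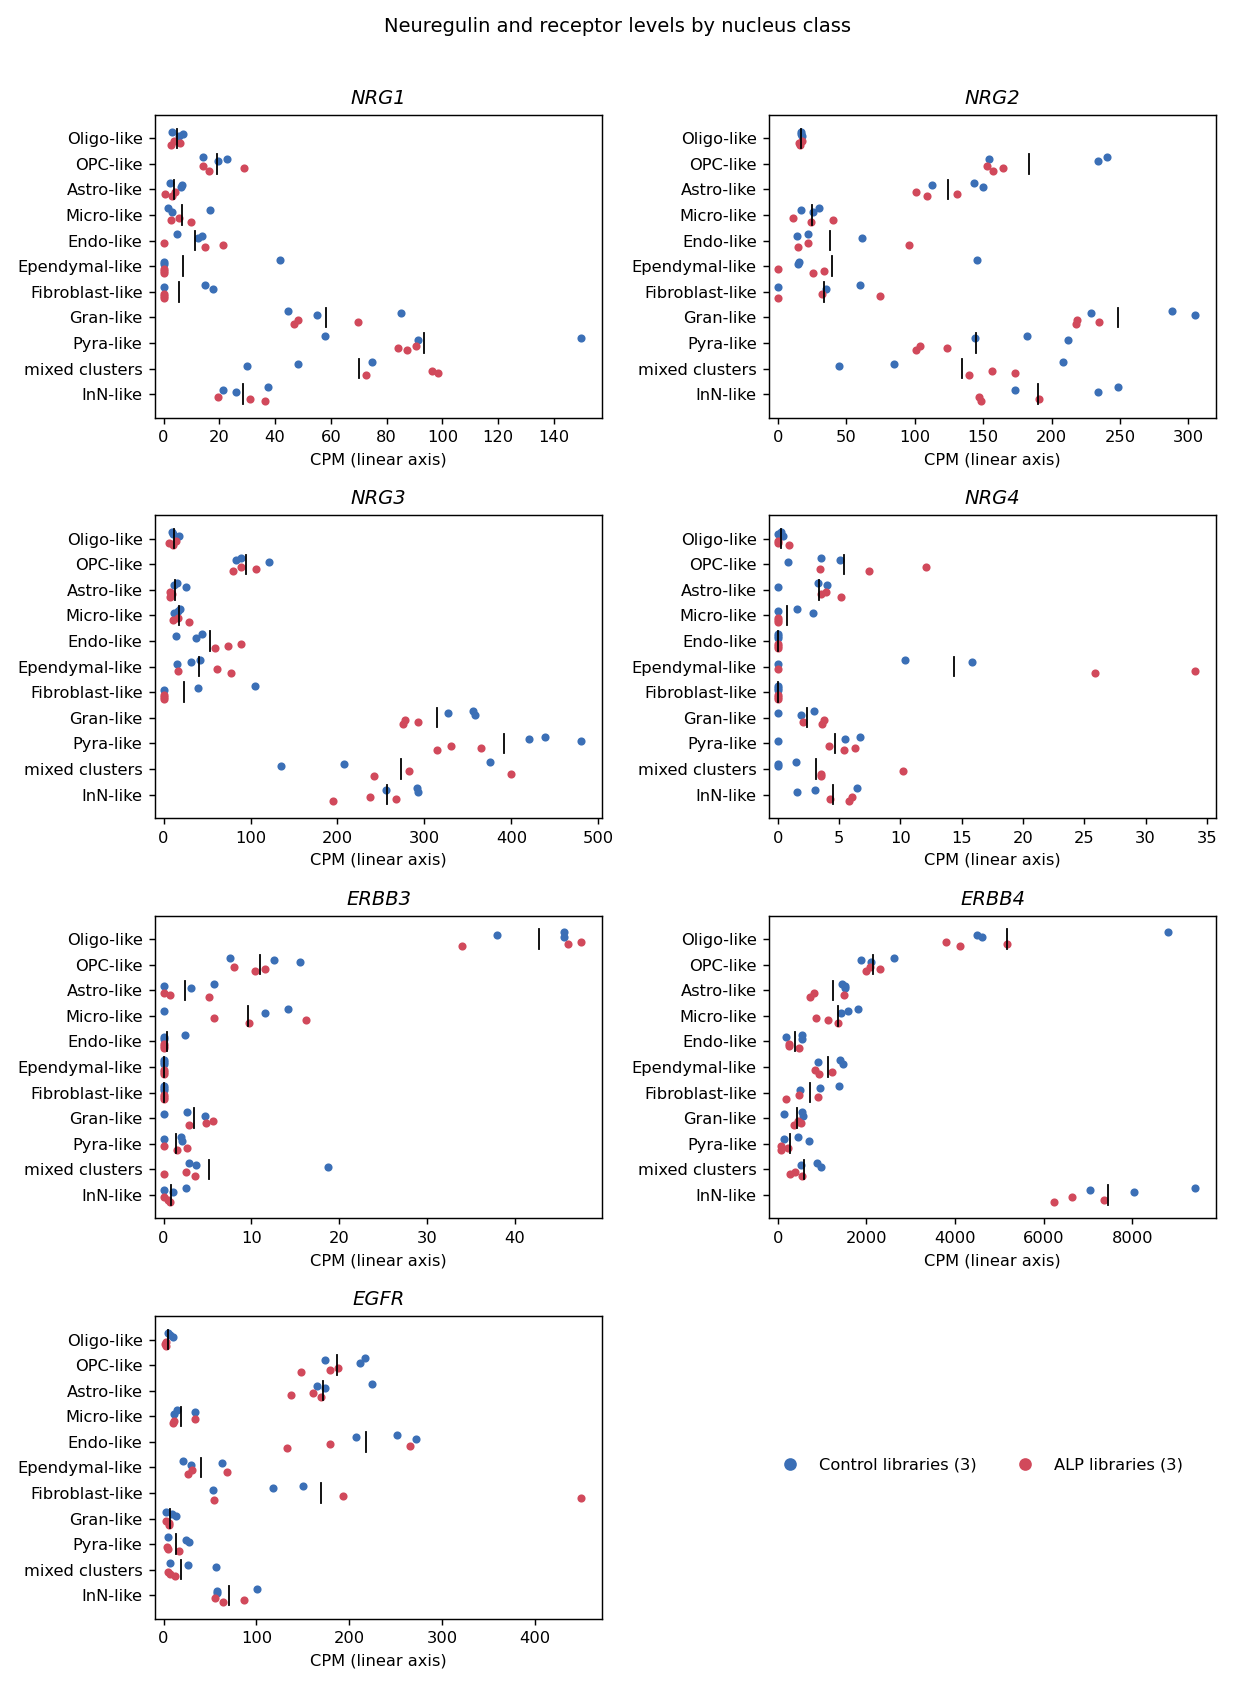
Levels of the 7 detected genes in 11 classes of nuclei, as CPM on linear axes with a different range in each panel. Points are single libraries (3 control, 3 ALP) and vertical lines are means over the 6 libraries. NRG1 and NRG3 are highest in Pyra-like nuclei, ERBB4 in InN-like and Oligo-like nuclei, ERBB3 in Oligo-like nuclei, and EGFR in Endo-like, OPC-like, Astro-like and Fibroblast-like nuclei.

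On the receptor side, ERBB4 was the 7th most abundant of all features, and 64.8% of the nuclei kept held at least 1 UMI. InN-like nuclei led with 7461 ± 1145 CPM and Oligo-like nuclei followed with 5169 ± 1843 CPM, with overlapping ranges. Both lay above OPC-like nuclei at 2160 ± 265 CPM, whose range of 1869 to 2617 CPM overlapped with no other class. Micro-like, Astro-like and Ependymal-like nuclei, at 1365 ± 334, 1256 ± 377 and 1132 ± 273 CPM, did not separate from one another, and Pyra-like nuclei were lowest with 282.2 ± 255.1 CPM. Together InN-like and Oligo-like nuclei held 47.6 ± 16.1% and 32.8 ± 15.03% of a library's ERBB4 UMIs.

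Because free RNA in a droplet can add UMIs of an abundant gene to any nucleus, ERBB4 was also counted per nucleus. InN-like nuclei carried 3143 ± 239 UMIs per 100 nuclei, Oligo-like 761.3 ± 324.3, OPC-like 417.0 ± 95.3 and Astro-like 257.8 ± 102.3. Micro-like nuclei carried 184.4 ± 68.1, Gran-like 124.7 ± 46.6, Pyra-like 91.2 ± 61.9 and Endo-like, the lowest, 62.5 ± 29.3. At similar median depths of 4284 and 3996 UMIs, 93.4 ± 2.9% of InN-like and 21.5 ± 12.1% of Pyra-like nuclei held ERBB4. The share in Endo-like nuclei, a class not known for this receptor, was 20.7 ± 5.1% at a median of 1208 UMIs. How much of the Endo-like and Pyra-like counts came from free RNA was not tested.

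ERBB3, the kinase-poor partner receptor, was highest in Oligo-like nuclei. They averaged 42.8 ± 5.5 CPM, from 34.0 to 47.6 CPM, above the highest OPC-like library at 15.5 CPM. OPC-like and Micro-like nuclei, at 10.96 ± 2.97 and 9.57 ± 5.9 CPM, overlapped, and 70.8 ± 7.8% of all ERBB3 UMIs came from Oligo-like nuclei. The gene was sparse even there, with a UMI in 5.8 ± 1.1% of nuclei. ERBB2 had no UMI in any barcode. For the nuclei kept this is 0 of 28233, which allows a share of nuclei with a UMI of up to 0.0106%. Since only the 3′ end of transcripts was read against an annotation whose gene ends were not examined, an absent count is not read as an absent gene.

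EGFR, the receptor for EGF-type ligands, was highest per UMI in Endo-like, OPC-like and Astro-like nuclei. The Endo-like cluster also carried mural markers, which summed to 1682 to 1866 CPM in control and 1095 to 1763 CPM in ALP. Endothelial and mural cells are therefore not told apart in this class. Endo-like nuclei averaged 218.0 ± 54.9 CPM, OPC-like 186.2 ± 25.1 CPM, Astro-like 171.7 ± 28.9 CPM and Fibroblast-like 169.7 ± 147.6 CPM, and these overlapped. InN-like nuclei followed with 70.2 ± 18.9 CPM, which overlapped with Fibroblast-like nuclei. Oligo-like nuclei, at 4.82 ± 3.3 CPM, and Gran-like nuclei, at 6.66 ± 4.0 CPM, were lowest. By source, Astro-like nuclei held 32.1 ± 5.3% of a library's EGFR UMIs, OPC-like 27.8 ± 6.0%, InN-like 22.7 ± 7.8% and Endo-like 4.81 ± 2.97%. From OPC-like to Oligo-like nuclei the means of EGFR, NRG2 and NRG3 were thus lower and those of ERBB3 and ERBB4 higher, without overlap of the libraries in any of the 5 genes. These steps between classes are descriptions, since classes were formed from the same nuclei.

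Interneurons did not share one receptor profile. The InN-like class comprised 4 clusters, led by LAMP5 with 553 nuclei, CALCR with VIP and CALB2 (514 nuclei), CNR1 with ADARB2 (539 nuclei) and SST with NPY (831 nuclei). ERBB4 averaged 11960 ± 1420 CPM in the LAMP5-led, 8659 ± 1093 CPM in the CALCR-led, 5845 ± 807 CPM in the SST-led and 4805 ± 1331 CPM in the CNR1-led cluster. Neighbours in this order overlapped, whereas the LAMP5-led libraries lay above all SST-led and CNR1-led ones. EGFR followed another order, with 128.9 ± 31.9 CPM in the LAMP5-led, 113.6 ± 42.0 CPM in the CALCR-led and 63.8 ± 28.3 CPM in the CNR1-led cluster against 11.4 ± 7.7 CPM in the SST-led one, which overlapped with none of the others. NRG1 was also lowest in SST-led nuclei, at 10.0 ± 4.4 CPM, and reached 43.4 ± 23.5 CPM in LAMP5-led nuclei. For NRG3 the SST-led cluster, at 302.6 ± 46.3 CPM, lay above the LAMP5-led one at 190.7 ± 17.8 CPM without overlap.

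**Figure D2:**
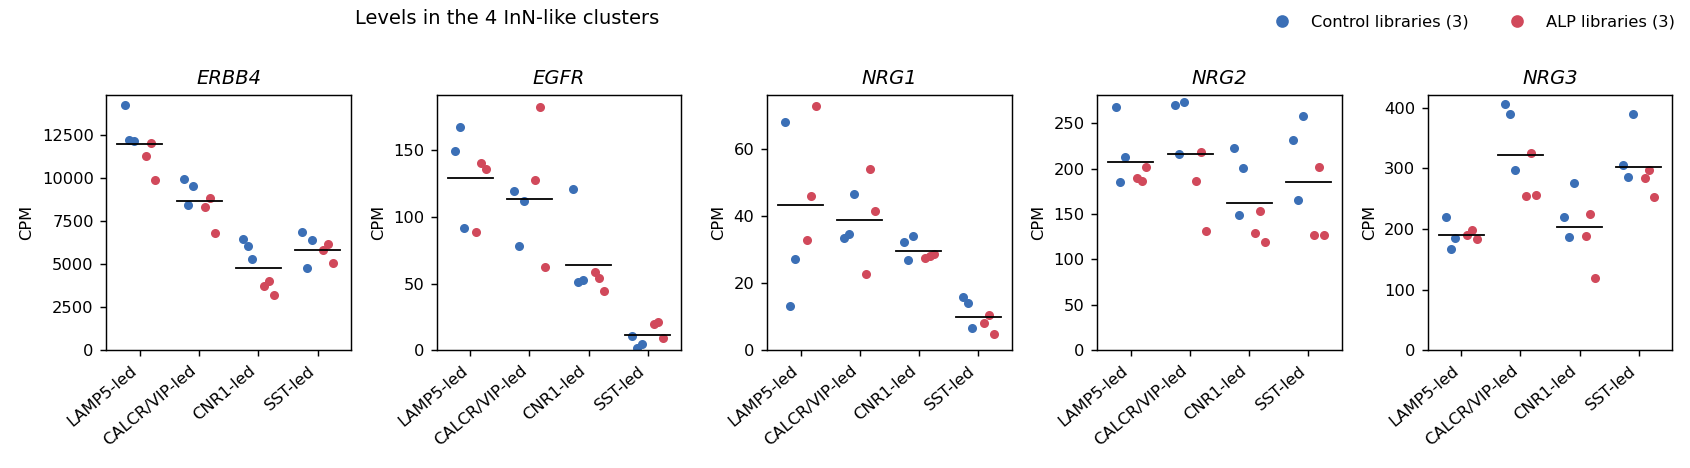
CPM of ERBB4, EGFR, NRG1, NRG2 and NRG3 in the 4 InN-like clusters, on linear axes from 0. Points are single libraries and horizontal lines are means over the 6 libraries. ERBB4 is highest in the LAMP5-led cluster in every library, and EGFR is lowest in the SST-led cluster.

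Genes with the most similar profile over the 66 sums of library and class were found by Pearson's r of log2(CPM + 1), among 7953 genes with a mean of at least 10 CPM. NRG3 was most like ERC2 (r = 0.925), a scaffold of the presynaptic active zone, RGS7 (0.883) and ADAM22 (0.873), and NRG1 most like CRMP1 (0.860), PCSK2 (0.856) and SCN3A (0.844). The genes most like NRG2 were ADCY8 (0.811), C1ORF21 (0.810) and GRM5 (0.807). For ERBB4 they were TMTC2 (0.803), TSORF (0.756) and TCF12 (0.731), for ERBB3 SEPTIN14 (0.853), SAPCD2 (0.844) and ESPNL (0.812), and for EGFR UTRN (0.821), CCDC50 (0.764) and ZNF423 (0.749). For NRG4 the highest values were lower, with SLC25A12 (0.664), CTNNA2 (0.639) and EPN3 (0.628). The sums share libraries and depth, so r describes these libraries.

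Between ALP and control, no member was called in any class by the edgeR quasi-likelihood test with Benjamini-Hochberg adjustment (adjusted p under 0.05 and a log2 fold change beyond 0.25). Of 40 pairs of member and class with enough counts, 0 were called by edgeR and 0 by DESeq2, where edgeR called 1.2% and DESeq2 2.25% of all 81621 pairs of gene and class. At an unadjusted p under 0.05 there were 8 of the 40 pairs, or 4 by DESeq2, and edgeR placed 16.6% of all pairs there. In 6 pairs the 3 ALP and 3 control values did not overlap, and in all 6 the ALP values were the lower ones, where 10.2% of all pairs had this pattern and 10.4% its opposite. Among the genes tested in a class, the share lower in ALP without overlap was 10.9% for Oligo-like, 9.32% for OPC-like, 11.1% for Astro-like, 7.42% for Micro-like, 5.45% for Endo-like, 6.47% for Ependymal-like, 4.84% for Fibroblast-like, 10.7% for Gran-like, 11% for Pyra-like, 6.58% for the mixed clusters and 13.1% for InN-like nuclei. In the same order the share higher without overlap was 12.5%, 9.24%, 11%, 9.05%, 4.15%, 7.12%, 3.7%, 11.1%, 11.3%, 7.16% and 11.3%, and the share called was 4.9%, 1.59%, 0.217%, 0.676%, 0%, 0%, 0%, 1.88%, 0%, 0% and 0.067%. The range of log2 fold changes (ALP minus control) over the 40 pairs was -1.62 to 0.81, with a median of -0.14 and a median standard error of 0.29. In the paragraphs on this comparison, CPM carry the TMM scaling factors of the test.

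**Figure D3:**
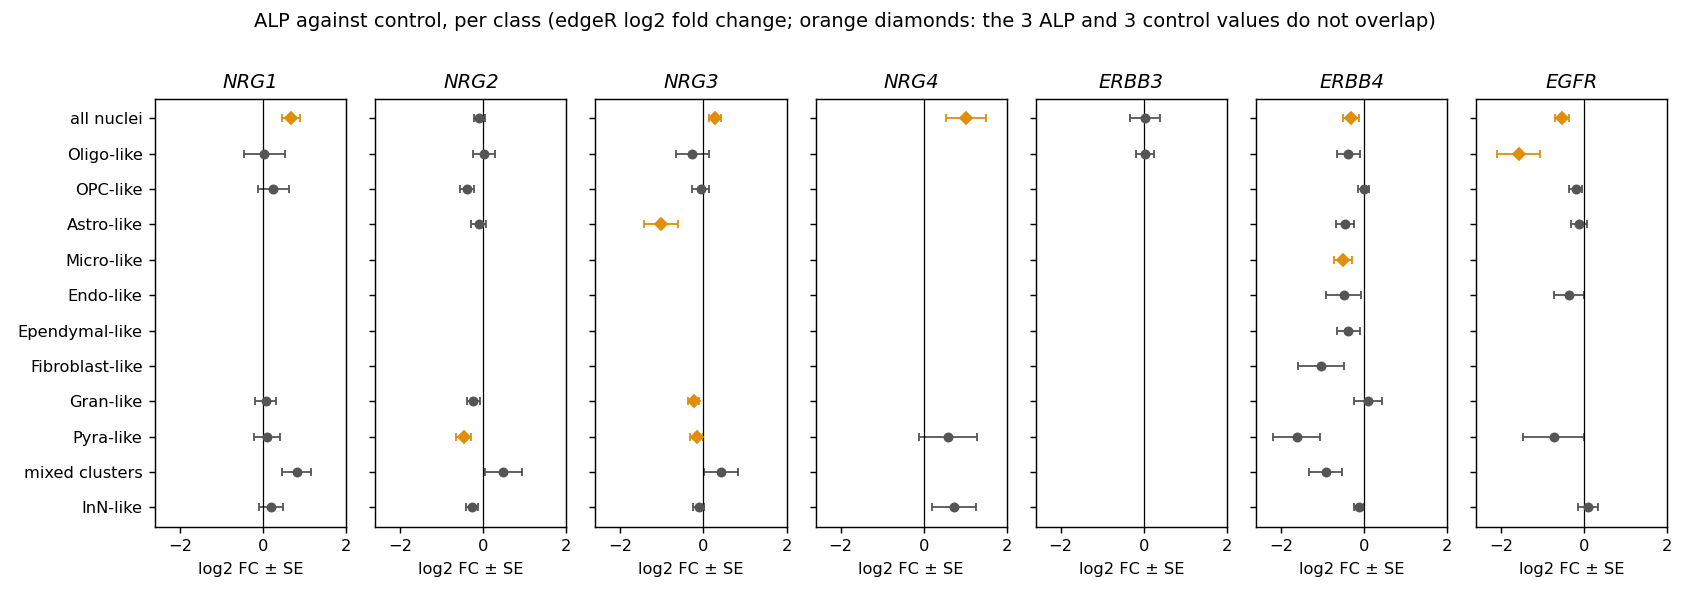
Log2 fold change of ALP against control with its standard error (edgeR) for each member in each class where it had enough counts; classes without a point were not tested. Orange diamonds mark pairs whose 3 ALP and 3 control values do not overlap: 6 within classes, all at negative values, and 5 over all nuclei. No point passed the adjusted threshold.

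NRG3 had lower values in ALP within Pyra-like and Gran-like nuclei and higher ones over all nuclei. In Pyra-like nuclei it measured 405.9, 401.5 and 455.6 CPM in Control 1 to 3 and 370.5, 377.3 and 383.1 CPM in ALP 1 to 3. In Gran-like nuclei the values were 362.6, 332.7 and 361.6 CPM against 299.96, 299.8 and 301.7 CPM. All 3 ALP libraries were thus below all controls in both classes, yet the differences were small, with log2 fold changes of -0.16 ± 0.16 (SE; adjusted p = 0.635, edgeR) and -0.24 ± 0.14 (adjusted p = 0.416), and the first turned to 0.08 without the gene limit. Ependymal markers in Gran-like nuclei were also lower in ALP, at 180.2 to 201.6 against 116.5 to 155.4 CPM, and their part was not tested. InN-like nuclei overlapped, with 274.4, 259.8 and 284.9 CPM against 261.7, 272.8 and 221.9 CPM. So did the mixed clusters, whose mean was higher in ALP, with 392.0, 214.2 and 142.6 CPM against 316.3, 440.8 and 260.4 CPM (log2 fold change 0.42 ± 0.41). Astro-like nuclei held little NRG3, at 14.5, 12.5 and 26.6 CPM against 8.86, 9.56 and 8.27 CPM (log2 fold change -1.03 ± 0.41, adjusted p = 0.232 by edgeR). Marker lists of other classes moved with it in Astro-like nuclei. The 7 measured InN markers summed to 115.5 to 143.4 CPM in control and 73.9 to 109.2 CPM in ALP, the Gran markers, with DSP at 0, to 88.5 to 103.3 against 51.7 to 87.8 CPM and the Endo markers to 50.9 to 68.3 against 23.8 to 38.5 CPM, whereas the sums of Astro and Ependymal markers were higher in ALP without overlap. Single markers were mixed. A lower mean in ALP was found for 5 of 7 InN, 4 of 7 Gran and 5 of 7 Endo markers. A higher mean was found for 4 of 7 Astro and 3 of 5 Ependymal markers. Their part in the result was not tested.

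Over all nuclei NRG3 measured 174.7, 179.9 and 156.2 CPM in the control libraries and 222.7, 205.6 and 192.3 CPM in the ALP libraries, without overlap, at a log2 fold change of 0.28 ± 0.14 (adjusted p = 0.255, edgeR). The share of Pyra-like nuclei, the class with the highest NRG3 level, was 6.24% to 9.48% in control and 10.5% to 12.8% in ALP, and Pyra-like nuclei supplied 22.2% to 29.7% of NRG3 UMIs in control and 34.1% to 46.1% in ALP. With members among the variable genes the shares of nuclei overlapped, at 205 of 1614 in Control 2 and 633 of 5217 in ALP 2. They also overlapped without the gene limit, at 454 of 3011 in Control 2 and 705 of 5595 in ALP 3. In the main clustering 1085 of 5751 nuclei of Control 3 stayed unnamed. A changed number of nuclei of a type and a changed transcript level per nucleus cannot be told apart in such sums.

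**Figure D4:**
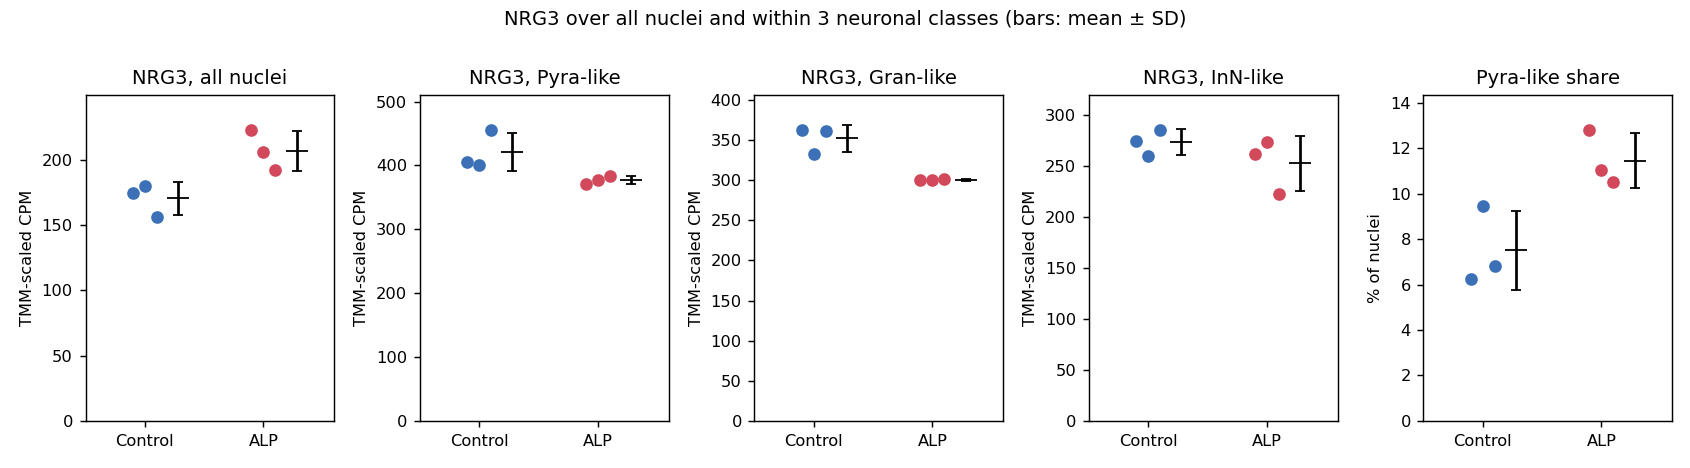
NRG3 in TMM-scaled CPM over all nuclei and within Pyra-like, Gran-like and InN-like nuclei, and the percentage of nuclei that were Pyra-like. Points are the 3 control and 3 ALP libraries, and bars are the mean ± SD. Over all nuclei the ALP libraries lie above the controls, whereas within Pyra-like and Gran-like nuclei they lie below them.

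NRG1 followed the same course over all nuclei, with 24.4, 39.3 and 22.9 CPM in control and 48.0, 43.8 and 45.0 CPM in ALP. The log2 fold change of 0.68 ± 0.22 did not pass the adjustment (adjusted p = 0.119, edgeR), and it did without Control 2, at 0.97 with an adjusted p of 0.0250, in a fit where 2245 of 24392 genes (9.2%) were called. Over all nuclei, 0 of 7 members were called by edgeR and 0 by DESeq2, where edgeR called 0% and DESeq2 7.65% of 22749 genes. Each test had 2 members at an unadjusted p under 0.05, where edgeR placed 5323 and DESeq2 4916 of the 22749 genes. In 5 of the 7 the groups did not overlap, with NRG1, NRG3 and NRG4 higher and ERBB4 and EGFR lower in ALP, where 12.8% of genes were higher and 14.4% lower in this way. Within classes the NRG1 values overlapped: in Pyra-like nuclei they were 53.5, 143.2 and 86.6 CPM against 101.8, 86.8 and 106.7 CPM (log2 fold change 0.10 ± 0.31). The one class with an unadjusted p under 0.05 was that of the mixed clusters, where the 3 controls held 78.1, 49.7 and 31.7 CPM and the ALP libraries 107.8, 108.6 and 77.9 CPM. There the log2 fold change was 0.81 ± 0.35 (adjusted p = 0.567, edgeR), and 1.30 without Control 1 (adjusted p = 0.0427), in a fit where 694 of 8484 genes (8.18%) were called. In this class the nuclei numbered 262, 195 and 294 in control, with 681977, 270365 and 267593 UMIs, and 281, 299 and 257 in ALP, with 779847, 854664 and 565988 UMIs. The class pools the nuclei led by haemoglobin genes with those led by COL8A1, and their mix differed between libraries. Control 3 held the largest share of the former, 26.9% of 1089 nuclei, and ALP 1 of the latter, 31.5% of 499. Nearly all of the 294 nuclei of Control 3 in this class were thus led by haemoglobin genes. In those nuclei the NRG1 level was lower than in the nuclei led by COL8A1, as given above. The part of this mix in the NRG1 and NRG3 values of the class was not tested. The 7 Astro markers, all with a lower mean in ALP, summed to 357.8 to 924.7 CPM in control and 166.1 to 344.5 CPM in ALP. Markers of CGE-type interneurons (221.4 to 373.6 against 110.3 to 213.8 CPM, with HTR3A at 0) and 4 mural markers (13.2 to 44.8 against 5.13 to 8.19 CPM) were also lower without overlap. Their part in the result was not tested.

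For NRG2 no pair was called either. In Pyra-like nuclei it measured 168.7, 137.9 and 201.5 CPM in control and 116.3, 127.6 and 123.6 CPM in ALP, without overlap (log2 fold change -0.47 ± 0.19, adjusted p = 0.240, edgeR). In the same nuclei Endo markers (80.3 to 99.5 against 55.8 to 62.4 CPM, 5 of 7 with a lower mean in ALP) and Micro markers (32.95 to 86.2 against 17.3 to 29.2 CPM, 7 of 8) were lower in ALP without overlap, and Oligo markers overlapped. Their part in this value and in that of NRG3 in Pyra-like nuclei was not tested. In OPC-like nuclei 2 controls stood at 243.2 and 248.7 CPM, and Control 2 with 166.8 CPM fell among the ALP values of 165.5, 174.8 and 171.2 CPM (log2 fold change -0.39 ± 0.17, adjusted p = 0.308). Gran-like, InN-like and Astro-like nuclei had log2 fold changes of -0.25, -0.28 and -0.11 with overlapping libraries. NRG4 was tested in 2 classes, with log2 fold changes of 0.58 ± 0.69 for Pyra-like nuclei and 0.72 ± 0.53 for InN-like ones. Over all nuclei it rested on 10 to 47 UMIs per library, and its 2.80, 3.02 and 0.82 CPM in control lay below the 5.02, 3.54 and 4.57 CPM in ALP (adjusted p = 0.234, edgeR).

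For ERBB4, InN-like nuclei measured 8881, 7143 and 7825 CPM in control and 7328, 7522 and 7123 CPM in ALP, so that the groups overlapped at a log2 fold change of -0.12 ± 0.13 (adjusted p = 0.658, edgeR). Oligo-like nuclei measured 8688, 4623 and 4510 CPM in control and 4067, 5299 and 4394 CPM in ALP. The difference there rested on Control 1, since the log2 fold change of -0.37 ± 0.29 became 0.03 without it. The Oligo-like class pooled clusters of unequal makeup. Control 1 held 53.1% of 1499 nuclei led by SHROOM4, and ALP 3 held 37.8% of 1927 nuclei led by TNFAIP6. The part of this makeup in the ERBB4 values was not tested. Among the interneuron clusters, the libraries did not overlap in the CNR1-led one, with 6451, 6072 and 5329 CPM in control and 3751, 4008 and 3218 CPM in ALP before TMM scaling. In the LAMP5-led one they were also apart, but narrowly, with 12130 CPM in the lowest control and 12030 CPM in the highest ALP library, and they overlapped in the CALCR-led and SST-led ones. Of features with at least 100 UMIs in the cluster, 17.7% of 3633 in the CNR1-led and 13.8% of 3536 in the LAMP5-led one were lower in ALP without overlap. These values are descriptions without a test, since clusters were not among the classes fitted.

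The lowest fold change of all pairs belonged to ERBB4 in Pyra-like nuclei, at -1.62 ± 0.56 (adjusted p = 0.198, edgeR). The control libraries held 424.6, 141.4 and 676.6 CPM and the ALP libraries 81.1, 236.7 and 88.8 CPM, so that Control 2 lay below ALP 2. The 6 measured Oligo markers summed in the same nuclei to 517.7, 209.9 and 841.0 CPM in control and 166.6, 334.2 and 148.6 CPM in ALP, again with Control 2 below ALP 2, and 5 of the 6 had a lower mean in ALP. Their part in the result was not tested. In Micro-like nuclei, ERBB4 measured 1977, 1943 and 1714 CPM in control against 1047, 1295 and 1624 CPM in ALP without overlap (log2 fold change -0.50 ± 0.22, adjusted p = 0.376), and summed Oligo markers there were 1808 to 2002 CPM in control and 1531 to 1722 CPM in ALP, also without overlap. Of these 6 markers, 3 had a higher and 2 a lower mean in ALP and MBP was at 0. Markers of CGE-type interneurons were also lower in ALP without overlap, at 83.7 to 100.1 against 45.7 to 58.7 CPM (4 of 7 with a lower mean, HTR3A at 0). So were Endo markers, at 141.3 to 167.5 against 79.9 to 137 CPM (5 of 7). Micro and Ependymal markers were higher without overlap, with a higher mean for 8 of 8 and 3 of 5. The part of all these markers in the result was not tested. Over all nuclei ERBB4 was lower in ALP without overlap, from 2978 to 3526 CPM in control to 2314 to 2831 CPM in ALP (adjusted p = 0.355).

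A feature named ERBB4-AS-1, antisense to the receptor gene by its name, was the single feature with a member's name to be called in a class, and it was looked at after its values were seen. In Oligo-like nuclei it held 358, 19 and 181 UMIs in Control 1 to 3 and 55, 84 and 54 in ALP 1 to 3, that is 1.10, 1.46 and 1.56 UMIs per 100 UMIs of ERBB4 in control and 0.93, 0.81 and 0.60 in ALP. All ALP ratios were below all control ratios. The share of features that separate in such a ratio was not computed, so this separation is a description. The log2 fold change was -1.16 ± 0.24 (adjusted p = 0.0220, edgeR), where 4.9% of the 11683 genes tested in Oligo-like nuclei were called, and the call was lost without Control 1, Control 3, ALP 1 or ALP 3 (adjusted p from 0.0816 to 0.156). The fold change stayed between -1.31 and -0.93 with single libraries left out, and in those 4 fits the number of genes called in Oligo-like nuclei fell from 573 to 333, 9, 1 and 1. The part of the unequal makeup of the Oligo-like clusters, given above, was not tested. In InN-like nuclei the ratios were 1.93, 1.38 and 3.04 against 1.07, 1.07 and 0.68, with a log2 fold change of -1.29 ± 0.30 (adjusted p = 0.0613 by edgeR, and 0.0026 by DESeq2). Of the 11941 genes tested in this class, edgeR called 0.067% and DESeq2 3.96%. Marker levels in this class moved as well: the 7 markers of MGE-type interneurons, all with a higher mean in ALP, summed to 308.0 to 475.9 CPM in control and 702.9 to 1218 CPM in ALP without overlap. The SST-led cluster, which is of MGE type, held 113 of 416, 109 of 296 and 153 of 478 InN-like nuclei in Control 1 to 3. In ALP 1 to 3 it held 200 of 465, 168 of 489 and 88 of 293, so that its share overlapped. The part of these markers in the InN-like values was not tested. Use of strand when reads were assigned to genes is not given in the sources used here, so that reads of ERBB4 and of its antisense feature cannot be told apart.

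**Figure D5:**
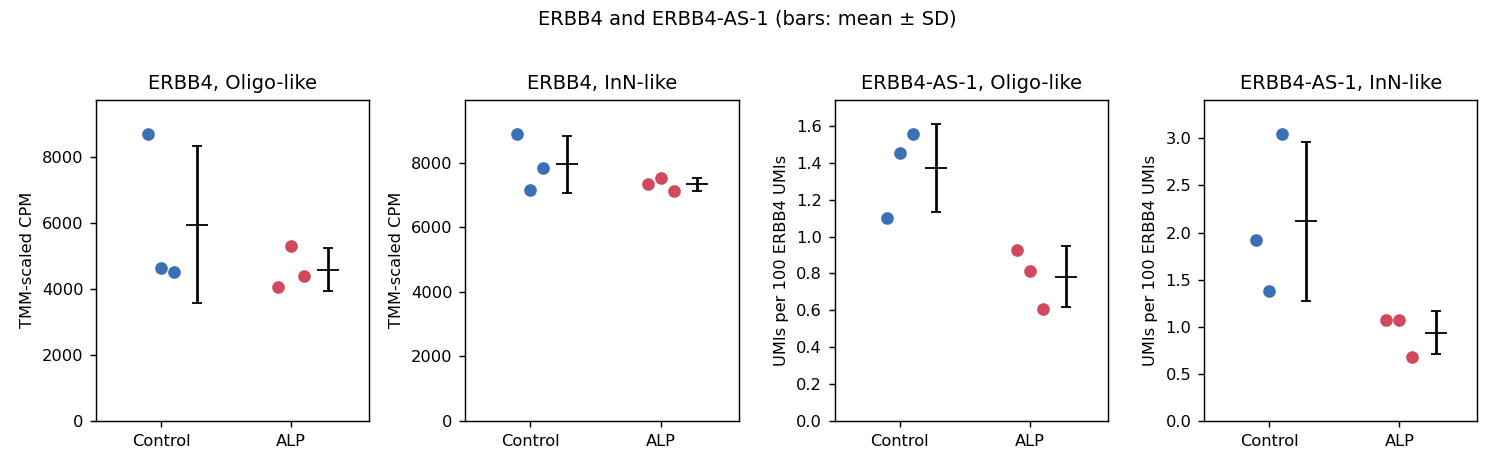
ERBB4 in TMM-scaled CPM (left pair) and ERBB4-AS-1 as UMIs per 100 ERBB4 UMIs (right pair) in Oligo-like and InN-like nuclei. Points are the 3 control and 3 ALP libraries, and bars are the mean ± SD. ERBB4 itself overlaps between the groups in both classes, whereas the 3 ALP ratios lie below the 3 control ratios in both.

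Of the other receptors, EGFR was lower over all nuclei, with 59.0, 75.1 and 66.8 CPM in control and 38.6, 52.4 and 48.2 CPM in ALP (log2 fold change -0.53 ± 0.17, adjusted p = 0.118, edgeR). The groups did not overlap. In its main classes the log2 fold changes were -0.20 ± 0.16 in OPC-like, -0.13 ± 0.19 in Astro-like, -0.37 ± 0.35 in Endo-like and 0.09 ± 0.23 in InN-like nuclei, each with overlap. Endo-like and OPC-like nuclei made up 1.83% to 3.12% and 9.39% to 12.02% of nuclei in control and 0.713% to 1.15% and 8.05% to 9.03% in ALP. The shares of Astro-like nuclei (8.12% to 19.45% and 7.67% to 14.7%) and InN-like nuclei (5.92% to 18.3% and 6.23% to 11.8%) overlapped. The part of these shares in the EGFR value over all nuclei was not tested. In Oligo-like nuclei EGFR was near 0 in both groups, at 4.81, 7.08 and 10.1 CPM against 2.75, 1.54 and 2.95 CPM without overlap (log2 fold change -1.58 ± 0.52, adjusted p = 0.104). Ependymal markers moved with it there, from 21.2 to 41.4 CPM in control to 15.03 to 17.0 CPM in ALP, and their part was not tested. ERBB3 in Oligo-like nuclei measured 44.9, 38.9 and 44.6 CPM in control and 50.8, 47.2 and 36.4 CPM in ALP, with a log2 fold change of 0.03 ± 0.21.

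Detection at equal depth gave a second reading in the class where each member was highest. Nuclei with at least 1000 UMIs were thinned to 1000 UMIs each and shallower ones were left out, which kept 894 of 982 control and 1521 of 1574 ALP nuclei in the Pyra-like class and 249 of 366 and 63 of 131 in the Endo-like class. NRG3 was then found in 32.9 ± 2.4% of Pyra-like nuclei in control and 27.8 ± 0.6% in ALP (n = 3 each, two-sided exact permutation p = 0.1), without overlap. EGFR in Endo-like nuclei was found in 20.3 ± 2.1% and 13.7 ± 4.1% (exact permutation p = 0.1), also without overlap, on 15 to 30 nuclei per ALP library. The value of 0.1 is the smallest that 3 against 3 libraries allow, and 7 members were tested. The share of all genes without overlap in this measure was not computed, so these separations are descriptions. NRG2 in Gran-like nuclei (23.2% and 19.6%), ERBB4 in InN-like nuclei (88.9% and 83.0%), NRG1 in Pyra-like nuclei (8.75% and 7.93%), ERBB3 in Oligo-like nuclei (4.21% and 4.02%) and NRG4 in Ependymal-like nuclei (1.17% and 2.23%) overlapped between the groups. Without thinning, NRG3 was found in 63.3 ± 13.5% and 72.6 ± 4.8% of Pyra-like nuclei, with overlap. Thinned to 500 UMIs the shares were 19.5 ± 1.4% and 15.4 ± 0.7%, without overlap (exact permutation p = 0.1). Shares of NRG2 in Gran-like (50.56% and 40.15%), ERBB4 in InN-like (95.5% and 91.3%) and ERBB3 in Oligo-like nuclei (6.55% and 5.05%) did not overlap without thinning. All were lower in ALP (exact permutation p = 0.1 each), and all overlapped when thinned to 500 UMIs. Depth is not equal in shares without thinning. EGFR in Endo-like nuclei overlapped at both other depths. Thinned to 500 UMIs it was found in 11.6 ± 2.1% and 9.6 ± 4.0% (exact permutation p = 0.6). Without thinning the shares were 27.05 ± 2.8% and 21.2 ± 7.2% (exact permutation p = 0.2).

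Whether the ALP effect on a member differed between classes was tested with all class-by-group terms at once. By this edgeR F test 0 of 7 members passed an adjusted p under 0.05, where 1.14% of 16522 genes did, and 1 member, ERBB4, had an unadjusted p under 0.05 (adjusted p = 0.211). DESeq2 was not run for this test. NRG3 followed with an adjusted p of 0.408 by edgeR. No difference between classes is therefore claimed for any member.

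The other genes of the pathway gave 1 call in all. Of the other ERBB ligands, 3 of 7 genes had enough counts, giving 13 pairs of gene and class of which 0 were called by edgeR, and HBEGF had the smallest p, in Gran-like nuclei (log2 fold change 0.76 ± 0.28, adjusted p = 0.169). Of 10 genes that process ligands or receptors, such as the sheddases ADAM10 and ADAM17 and the subunits of gamma-secretase, 0 of 63 pairs were called, and PSENEN, a gamma-secretase subunit, had the smallest p in Astro-like nuclei (log2 fold change 1.18 ± 0.32, adjusted p = 0.0969). PSENEN was similar in Oligo-like nuclei (1.13 ± 0.32, adjusted p = 0.0660, edgeR). Genes for receptor turnover and inhibition gave 0 of 60 pairs, with the ubiquitin ligase gene WWP1 leading in the mixed clusters (1.28 ± 0.35, adjusted p = 0.492), and ERBB4 partners such as the scaffolds of the DLG family 0 of 56, with NCOR1 leading in Ependymal-like nuclei (-1.65 ± 0.55, adjusted p = 0.368). Unadjusted p-values under 0.05 numbered 4, 3, 5 and 3 in these lists. Of all pairs of gene and class, edgeR placed 16.6% there and called 1.2%.

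The signalling list gave the single call of the pathway. Of its 114 pairs, 1 was called higher and 0 lower in ALP, and 8 had an unadjusted p under 0.05. PIK3R2, a regulatory subunit of phosphoinositide 3-kinase, rose in Micro-like nuclei from 61.5, 81.8 and 31.3 CPM in control to 192.8, 164.2 and 255.2 CPM in ALP (log2 fold change 1.93 ± 0.33, adjusted p = 0.00906, edgeR), where 0.676% of 5030 genes were called. These values rest on 36, 4 and 9 UMIs in control and 28, 53 and 44 in ALP, and Control 2 had 35 such nuclei. The number of genes called in this class fell from 34 to 10 without ALP 1 and to 10 without ALP 3. PIK3R2 was not followed in those fits. The 8 markers of microglia in the same nuclei also had higher means in ALP, their sum being 2986 to 4562 CPM in control and 4727 to 5352 CPM in ALP, and their part in the result was not tested. The median log2 fold change was -0.10 for other ligands, 0.02 for ligand processing, -0.01 for signalling, 0.06 for turnover and -0.14 for ERBB4 partners.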

How the data were processed

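Nuclei of frozen hippocampus were captured on a 10x Genomics Chromium chip. The deposited matrices hold raw counts (UMIs of each feature in each barcode), which the authors obtained with Cell Ranger against TreeshrewDB, in version 3.1.0 by the labels and 6.1.2 by the file headers. Genome build, strand and intron use are not given in the sources used here. Nuclei passing the study's limits were clustered with scanpy 1.11.5 on 2000 variable genes, without the members and features carrying their names (30 principal components, 20 neighbours, Leiden resolution 2, leidenalg 0.10.2). A cluster took a name from 3 or more markers that were each in 3% of its nuclei and 1.5-fold higher than elsewhere. It lost the name with 15% or more marked doublets, which were otherwise kept. The name was also lost where another class had more markers among the leading genes, or at low depth without an own marker among them. Excitatory clusters of no named type needed CAMK2A in 30% and SLC17A7 in 20% of nuclei. Counts were summed by library and class where a library had 10 or more nuclei, because nuclei of 1 animal are not replicates. Sums were tested with edgeR 4.0.16 (quasi-likelihood, TMM, minimum count 10, Benjamini-Hochberg over all genes of the class) in R 4.3.3.

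Shares of nuclei with a UMI were computed for a depth of 1000 UMIs and compared by exact permutation tests (scipy 1.17.1). The alternatives comprised DESeq2 1.42.0, another normalization (upper quartile), unfiltered counts, a block for the replicate number, single libraries left out, no upper gene limit, removal of marked doublets, Leiden resolution 1, members among the variable genes, and thinning to 500 UMIs or none. Named are all members, of each pathway list the called gene or else the one with the smallest p, and the 3 genes most alike to each member. Members, lists and naming thresholds were chosen with earlier results of these data known. The edgeR step was tested on simulated data. With 1 library per animal, p-values rest on 3 animals a group. The limit given for a count of 0 (3 counts) covers counting error only.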

Additional observations from a re-analysis of the deposited data

How the results depend on the processing

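Of 40 pairs of member and class, 0 were called, and the count was 1 without a filter on low counts (ERBB4 in Pyra-like nuclei, with 2.46% of the 40944 genes then tested) and 0 to 3 when single libraries were left out: 3 without Control 1, all in the mixed clusters (NRG1, NRG2 and EGFR, with 8.18% of 8484 genes), and 1 without ALP 2 (ERBB4 in Astro-like nuclei, with 2.24% of 10327 genes). Over all nuclei the count of 0 became 1, NRG1, without the filter (with 6.16% of 54978 genes), and 0 to 1 with single libraries left out, again NRG1, without Control 2 (with 9.2% of 24392 genes). The test of differences between classes passed 0 members. Without the filter it passed 1, ERBB4 (adjusted p = 1.27e-06 by the edgeR F test, with 1.2% of 54660 genes). With single libraries left out it passed 0 to 4: without Control 1, NRG2, NRG3, ERBB4 and EGFR passed, and 9.12% of all genes with them. DESeq2, upper-quartile normalization, removal of marked doublets, resolution 1, members among the variable genes and no upper gene limit left these counts at 0 wherever they were run. With the replicate number as a block, 0 pairs and 0 members over all nuclei were called. Deviations of same-numbered libraries from their group means gave 4 of 36 correlations over 0.1 (median r = -0.03, highest r = 0.37). The labels do not say whether the numbers pair the samples, and correlations with 3 libraries per group cannot decide it. Thinned shares (ALP minus control, in percentage points) changed sign for NRG1 in Pyra-like nuclei, from -0.815 to 8.50 without thinning, to 0.551 without the gene limit and between -2.44 and 1.37 with single libraries left out. For NRG3 in Pyra-like nuclei the difference of -5.13 became 9.30 without thinning and lay between -6.38 and -3.97 with libraries left out. Without the gene limit it was -1.85, and the groups overlapped. For ERBB3 in Oligo-like nuclei the difference of -0.19 ranged from -0.473 to 0.261. Left-out ranges kept their sign for NRG2 (-4.97 to -2.88), NRG4 (0.0173 to 2.18), ERBB4 (-8.59 to -3.29) and EGFR (-7.90 to -4.28). The range of NRG4 rests on a class with 5 of its UMIs in all, too few to read a direction. Of 252 fold changes followed for 19 named pairs, 2 reversed: NRG3 in Pyra-like nuclei to 0.084 without the gene limit, and ERBB4 in Oligo-like nuclei, between -0.539 and 0.0304 with libraries left out, the latter without Control 1. The highest class of every member kept its level within 1 SD when members entered the clustering or the gene limit was lifted, except that no Endo-like class was named without the limit, which leaves EGFR without a value. The causes of these changes were not tested.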

Other observations

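The barcodes over the gene limit, 9349 in all, held most UMIs of NRG1, NRG2, NRG3 and NRG4 and enter the comparisons above only where the gene limit was lifted. In them ERBB4 measured 2374, 1824 and 1896 CPM in Control 1 to 3 and 887.8, 1036 and 770.1 CPM in ALP 1 to 3, without overlap. EGFR (26.4 to 39.8 CPM in control, 13.3 to 19.2 CPM in ALP), NRG2 (159.9 to 215.7 CPM and 141.6 to 151.0 CPM) and ERBB3 (1.80 to 3.83 CPM and 1.48 to 1.76 CPM) were lower in the ALP libraries as well. Of 22150 features with at least 100 UMIs in these barcodes, 32.1% were lower and 5.86% higher in ALP without overlap. NRG1 (52.0 to 76.1 CPM and 64.9 to 82.5 CPM) and NRG3 (341.7 to 390.6 CPM and 359.5 to 379.8 CPM) overlapped. When all nuclei were clustered without the limit, InN-like nuclei made up 24.1% to 30.6% of these barcodes in control and 11.2% to 15.4% in ALP, and Pyra-like nuclei 21.7% to 38.5% and 45.2% to 49.4%. The part of this makeup in the levels was not tested.

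Of 30 further features that carry a member's name, 29 named as antisense, NRG1-AS-7 was the largest beside ERBB4-AS-1, with 139, 41 and 72 UMIs in control and 185, 130 and 173 in ALP over all nuclei (log2 fold change 1.14 ± 0.30, adjusted p = 0.0852, edgeR). It held 24.3 to 33.8 UMIs per 100 NRG1 UMIs in control and 25.6 to 45.0 in ALP, so that its ratio to the gene overlapped. ERBB4-AS-1 was not alone in having lower counts in ALP. Over all nuclei ERBB4-AS-2 held 68, 35 and 131 UMIs in control and 30, 15 and 28 in ALP. EGFR-AS-1 held 10, 7 and 45 against 2, 6 and 1. ERBB3-AS-1, with 179, 16 and 148 against 105, 92 and 123, overlapped. These are UMI counts, not scaled to library size.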
